A study of Mus musculus with 8 samples.

Results

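The DNA replication genes described here are 43 genes whose proteins license origins, build and run the replication fork, or supply its nucleotides. They form a given list of symbols, chosen by what the proteins do, and were read out of the gene counts of CD11b+ brain cells. All 43 were among the 20308 gene symbols measured, and 43 of 43 were among the 13407 genes that passed the filter on low counts. The cells came from the right brain hemisphere of mice aged p14 or p15, and were pulled down with magnetic beads against CD11b, an integrin on the surface of microglia and myeloid cells in general, after myelin had been removed with Percoll. The 4 control and the 4 CSF1 over-expression (CSF1 OE) mice were all F1 offspring of C57Bl/6 and CD1 parents, and each mouse, known by its animal number, gave 1 library. CSF1 is the growth factor whose receptor, Csf1r, microglia need to survive and divide. In CSF1 OE mice a tetracycline-responsive transgene with a secreted form of CSF1 and EGFP was driven in a subset of GFAP+ cells, so that CD11b+ cells were not the cells in which the transgene was driven. The genotype of each mouse is known, while the day of age of each mouse is not given.

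A cell copies its DNA once per division. In late mitosis and G1 the origin recognition complex (Orc proteins), Cdc6 and Cdt1 load the ring-shaped Mcm helicase onto origins, which is called licensing, and geminin then blocks a second loading. In S phase the kinase Cdc7, Mcm10, Cdc45 and the GINS complex turn the loaded ring into an active helicase, replication protein A coats the exposed single strands, and primase and the polymerases copy them with the sliding clamp Pcna. Microglia multiply in the brain during the first postnatal weeks and divide in response to CSF1. The transcription of many replication genes is known to be controlled by E2F factors, which bind short GC-rich sites near the start of these genes and are held back by the retinoblastoma family of pocket proteins.

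Promoters are shown as a description of sequence, and a link between their letters and the levels in the mice was not tested. The RefSeq promoter table of build GRCm38.p6 held 35 of the 43 members, in 43 promoters that run from 250 bases before to 50 bases after a transcript start, and had no entry for *Gins1*, *Gins2*, *Gins4*, *Gmnn*, *Mcm4*, *Pole*, *Prim2* and *Rfc2*. They were searched on both strands for the E2F letters TTTGGCGC, TTTCCCGC, TTTGCCGC and TTTCGCGC and for the CCAAT box, CCAAT, and matches on opposite strands may overlap. E2F letters were found in 15 of the 43 promoters (34.9%), against 2.26% of all 32851 promoters and 3.73% of the promoters of genes tested. The 15 genes were *Cdc6*, *Cdt1*, *Dnmt1*, *Gins3*, *Lig1*, *Mcm3*, *Mcm5*, *Mcm6*, *Mcm7*, *Orc1*, *Pola1*, *Pold1*, *Pole2*, *Rfc3* and *Uhrf1*. A CCAAT box was found in 25 of the 43 (58.1%), against 37.4% of all promoters. Below are the 250 bases before the start of 2 helicase genes that held several E2F matches, and of *Dna2*, the member with the largest difference between the genotypes, which held none. *Mcm5* is at chr8:75109259-75109508 on the plus strand, *Mcm6* at chr1:128359706-128359955 on the minus strand and *Dna2* at chr10:62946779-62947028 on the plus strand. All are written 5′ to 3′ in the direction of the gene, and capitals mark E2F letters or a CCAAT box on either strand.
Mcm5: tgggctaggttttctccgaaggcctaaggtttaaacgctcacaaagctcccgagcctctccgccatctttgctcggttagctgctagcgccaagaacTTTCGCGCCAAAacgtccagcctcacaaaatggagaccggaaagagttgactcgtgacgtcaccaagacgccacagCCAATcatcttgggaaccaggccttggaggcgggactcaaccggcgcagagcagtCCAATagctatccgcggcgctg
Mcm6: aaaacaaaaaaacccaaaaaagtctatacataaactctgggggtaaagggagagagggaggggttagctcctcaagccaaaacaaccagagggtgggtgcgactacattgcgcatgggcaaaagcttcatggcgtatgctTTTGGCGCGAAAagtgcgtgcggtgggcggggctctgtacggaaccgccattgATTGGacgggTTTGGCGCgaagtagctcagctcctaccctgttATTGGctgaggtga
Dna2: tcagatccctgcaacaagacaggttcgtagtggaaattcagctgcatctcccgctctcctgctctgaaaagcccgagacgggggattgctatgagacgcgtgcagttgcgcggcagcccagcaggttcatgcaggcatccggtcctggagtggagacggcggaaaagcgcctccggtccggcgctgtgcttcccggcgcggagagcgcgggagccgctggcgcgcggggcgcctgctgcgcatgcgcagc
In *Mcm5* a pair of E2F matches on opposite strands shared bases, and the promoter held 2 CCAAT boxes. *Mcm6* held 3 E2F matches, of which a pair overlapped in the same way, and 2 CCAAT boxes. *Pcna* had no E2F match and 1 CCAAT box in its 250 bases. A match describes the letters only, and the absence of one says nothing about what binds there.

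Total counts ran from 12908195 to 15475488 in control and from 12053280 to 14356538 in CSF1 OE mice. Expression is given as CPM, counts scaled to a common library size by TMM, and a count of 0 allows up to 3 counts, or from 0.177 to 0.266 CPM in these libraries. Fold changes are CSF1 OE against control from edgeR's quasi-likelihood test, and a gene was called at a Benjamini-Hochberg adjusted p under 0.05 over all genes tested and a fold change under 0.7 or over its inverse. The p-values set the difference between the genotypes against the spread between mice, which edgeR estimates with information shared over genes. The microglia markers (8 of 8 tested, 3 higher, 0 called) summed to between 20288 and 35873 CPM in control and between 26191 and 36422 CPM in CSF1 OE mice. The lowest sum was that of control mouse 1934, and the other control mice had at least 31104 CPM. The receptor gene *Csf1r*, one of these markers, differed little (log2 fold change 0.05, adjusted p = 0.914 from edgeR). *Csf1* itself ran from 139 to 364 CPM in the control and from 167 to 400 CPM in the CSF1 OE libraries, with a log2 fold change of 0.19 (SE 0.33, adjusted p = 0.796 from edgeR), so that the genotypes could not be told apart by it in these cells, which are not those that carry the active transgene.

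Of the 43 members, 42 were higher and 1 was lower in CSF1 OE mice, and 2 were called, *Dna2* and *Pcna*, both higher. Over all genes tested 0.388% were called higher and 0.0522% lower. An unadjusted p under 0.05 from edgeR was reached by 23 members (53.5%), all higher, against 10.1% of all genes higher and 6.44% lower. The median log2 fold change of the members was 0.48, with a range from -0.10 to 1.47, and it was -0.03 over all genes tested, of which 44.8% were higher. The fold change passed the upper threshold in 18 members (41.9%), against 4.29% of all genes. The values of every CSF1 OE mouse lay above those of every control mouse in 6 members (13.95%), *Dna2*, *Pcna*, *Fen1*, *Rfc5*, *Rrm2* and *Tyms*, against 6.84% of all genes. In *Rfc5* and *Rrm2* the gap was very small, from 15.731 to 15.755 CPM and from 36.4 to 36.6 CPM between the nearest mice. No member had every CSF1 OE mouse below every control mouse, against 3.45% of all genes. These counts describe the list, which was not tested as a whole. In bulk RNA, more dividing cells and more replication RNA per cell cannot be told apart.

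**Figure D1:**
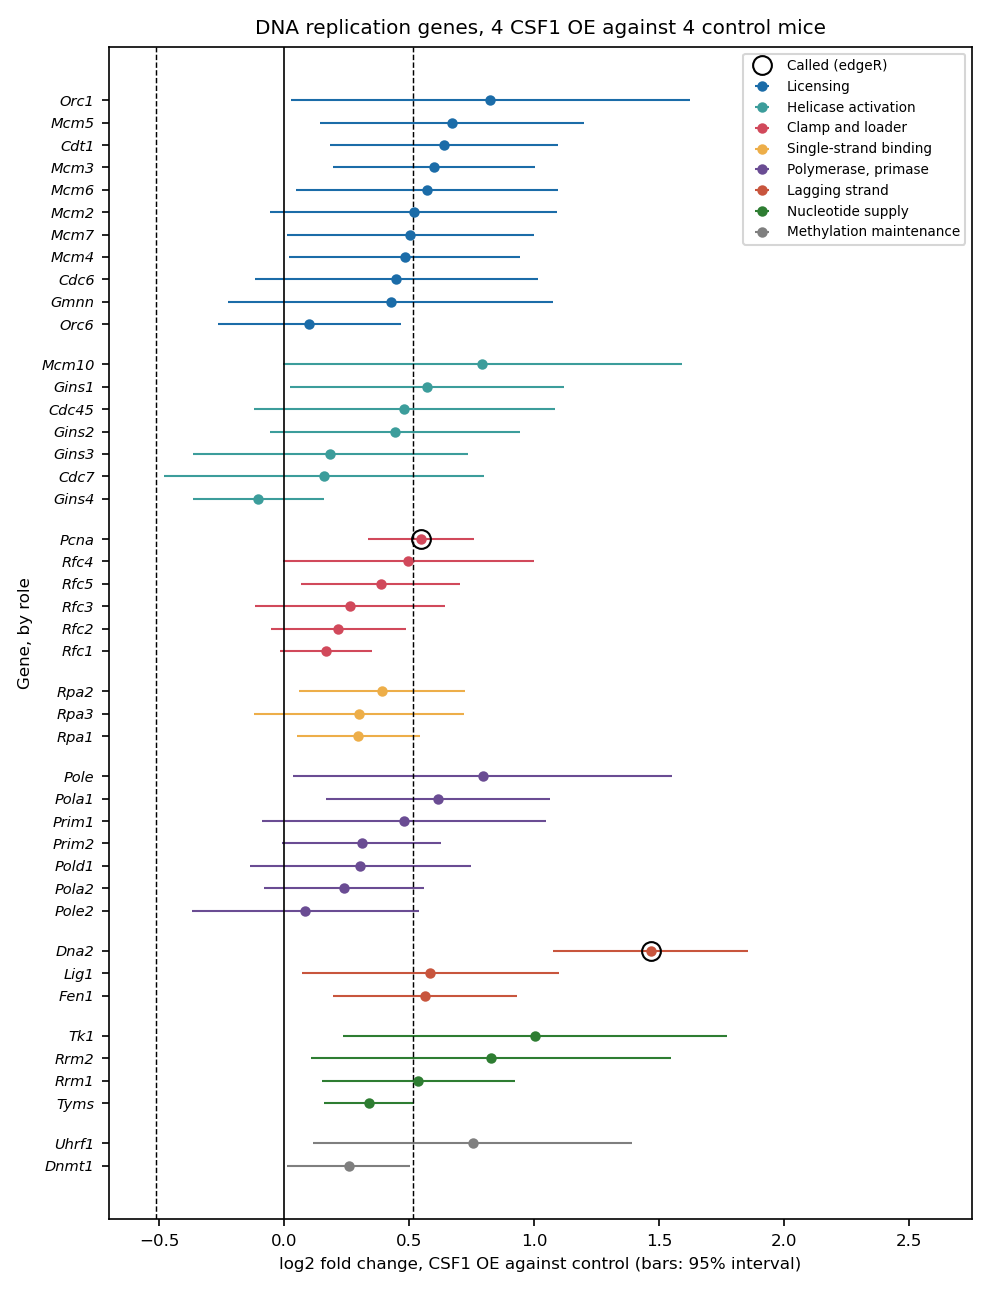
Log2 fold change of the 43 replication genes in 4 CSF1 OE against 4 control mice, by role, with points for the estimate of edgeR and bars for its 95% interval. Dashed lines mark the fold threshold of 0.7 and its inverse and rings the called genes; 42 points lie above 0, and the called genes are Dna2 at 1.47 and Pcna at 0.55.

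The licensing genes, *Orc1*, *Orc6*, *Cdc6*, *Cdt1*, *Gmnn* and *Mcm2* to *Mcm7*, were all higher in CSF1 OE mice (11 of 11, median log2 fold change 0.52). None was called, and 7 had an unadjusted p under 0.05. The 6 subunits of the Mcm2-7 helicase ring lay close together, between 0.48 and 0.67, and 5 of them had an unadjusted p under 0.05. *Orc1*, the largest subunit of the origin recognition complex, differed most. It had 3.16, 1.59, 1.21 and 2.42 CPM in control mice 1827, 1872, 1874 and 1934, and 2.55, 4.41, 4.91 and 3.01 CPM in CSF1 OE mice 1931, 1932, 1936 and 2019. Control mouse 1827 lay inside the range of the CSF1 OE mice and the other 3 control mice below it. Its log2 fold change was 0.82 (SE 0.35, adjusted p = 0.288 from edgeR), and *Orc1* was the lowest of the members per length of exon. *Orc6*, the smallest subunit of the same complex, had the smallest difference of the group (0.10, SE 0.16, adjusted p = 0.780 from edgeR). *Mcm3*, one of the ring subunits, averaged 80.7 ± 22.2 CPM in control mice and 122 ± 13.03 CPM under CSF1 OE (SD, n = 4 each), and its log2 fold change was 0.60 (SE 0.18, adjusted p = 0.157 from edgeR). *Mcm5* had 52.2 ± 17.4 and 83.2 ± 15.2 CPM (SD, n = 4 each), and its log2 fold change was 0.67 (SE 0.23, adjusted p = 0.209 from edgeR). In both genes the highest control mouse was 1827, which overlapped the CSF1 OE mice. The loading factor *Cdt1* and its inhibitor geminin (*Gmnn*) were both higher, by 0.64 and 0.43 on the log2 scale (adjusted p = 0.175 and 0.491 from edgeR).

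Of the helicase activation genes, *Cdc7*, *Mcm10*, *Cdc45* and *Gins1* to *Gins4*, 6 of 7 were higher (median 0.44), 0 were called and 1, *Gins1*, had an unadjusted p under 0.05. *Mcm10*, which is needed for the loaded helicase to start unwinding, had 11.9, 4.77, 4.61 and 9.29 CPM in control mice 1827, 1872, 1874 and 1934, and 11.3, 18.0, 15.1 and 8.59 CPM in CSF1 OE mice 1931, 1932, 1936 and 2019. Control mice 1827 and 1934 lay among the CSF1 OE mice, and the log2 fold change was 0.79 (SE 0.35, adjusted p = 0.304 from edgeR). The 4 GINS subunits, which join the ring as 1 complex, did not have like values. *Gins1* was at 0.57, *Gins2* at 0.44, *Gins3* at 0.18 and *Gins4* at -0.10 on the log2 scale. *Gins4* was the only member lower in CSF1 OE mice. It had 16.2, 14.6, 17.0 and 14.02 CPM in control mice 1827, 1872, 1874 and 1934, and 15.6, 14.7, 14.1 and 13.1 CPM in CSF1 OE mice 1931, 1932, 1936 and 2019. Its genotypes overlapped (SE 0.12, adjusted p = 0.682 from edgeR), and unlike most members *Gins4* was highest in control mouse 1874.

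*Pcna*, the sliding clamp that holds polymerases on DNA, rose in CSF1 OE mice. It had 193, 148, 158 and 161 CPM in control mice 1827, 1872, 1874 and 1934, and 234, 236, 253 and 242 CPM in CSF1 OE mice 1931, 1932, 1936 and 2019. Every CSF1 OE mouse lay above every control mouse, and the CSF1 OE mice were close to each other. The fold change was 1.46 (95% interval 1.26 to 1.69), or 0.55 on the log2 scale (SE 0.094, adjusted p = 0.0499 from edgeR). The call was at the edge of the threshold. *Pcna* was called in 6 of 16 alternatives. It was not called with upper-quartile factors, with no filter beyond any count or with a robust prior (adjusted p = 0.0552, 0.0521 and 0.0530 from edgeR), nor in 7 of the 8 fits that left out a mouse, all but that without control mouse 1827 (adjusted p from 0.0648 to 0.186, from edgeR), while its log2 fold change stayed between 0.50 and 0.63 over all alternatives. The 5 subunits of the clamp loader, *Rfc1* to *Rfc5*, which open the clamp and close it around DNA, were higher by 0.17 to 0.50 on the log2 scale, and none was called. Among them *Rfc5* had a log2 fold change of 0.39 (SE 0.14, adjusted p = 0.224 from edgeR). Its genotypes did not overlap but almost touched, at 15.731 CPM in control mouse 1934 and 15.755 CPM in CSF1 OE mouse 2019. The smallest difference of the group was that of *Rfc1* (0.17, SE 0.082, adjusted p = 0.348 from edgeR). Per length of exon *Pcna* was the most abundant member, at 109 CPM per kb in control mice and 159 under CSF1 OE.

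The 3 subunits of replication protein A, which protects single-stranded DNA at the fork, were higher by 0.30 to 0.39 on the log2 scale, with 0 called and 2 at an unadjusted p under 0.05. *Rpa2* had 17.9, 14.5, 14.4 and 14.7 CPM in control mice 1827, 1872, 1874 and 1934, and 17.4, 22.5, 23.7 and 17.0 CPM in CSF1 OE mice 1931, 1932, 1936 and 2019. Control mouse 1827 stood apart from the other control mice and lay within the CSF1 OE range, and the log2 fold change was 0.39 (SE 0.15, adjusted p = 0.238 from edgeR). The same mouse was the highest control mouse for *Rpa1*, whose log2 fold change of 0.30 (SE 0.11, adjusted p = 0.227 from edgeR) was the smallest of the 3.

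The polymerase and primase genes, *Pola1*, *Pola2*, *Prim1*, *Prim2*, *Pold1*, *Pole* and *Pole2*, were higher in 7 of 7 cases (median 0.31), with 0 called and 2 at an unadjusted p under 0.05. *Pole*, the catalytic subunit of the leading strand polymerase, had 28.5, 11.0, 11.1 and 23.3 CPM in control mice 1827, 1872, 1874 and 1934, and 27.8, 42.3, 35.1 and 23.1 CPM in CSF1 OE mice 1931, 1932, 1936 and 2019. Control mice 1827 and 1934 again lay inside the CSF1 OE range, and the log2 fold change was 0.79 (SE 0.34, adjusted p = 0.281 from edgeR). *Pole2*, the second subunit of the same enzyme, had the smallest difference of the group (0.08, SE 0.20, adjusted p = 0.851 from edgeR). *Pola1*, the catalytic subunit of the polymerase that starts new strands together with primase, was at 0.61 (SE 0.20, adjusted p = 0.184 from edgeR). Its partner *Pola2* was at 0.24, and the primase subunits *Prim1* and *Prim2* at 0.48 and 0.31. *Pold1*, the catalytic subunit of the lagging strand polymerase, was at 0.30 (adjusted p = 0.467 from edgeR).

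*Dna2* rose most of all members. It encodes a nuclease and helicase that trims long flaps on Okazaki fragments, the short pieces of the lagging strand, and also acts in the resection of DNA breaks and at stalled forks. It had 10.9, 7.75, 7.26 and 10.9 CPM in control mice 1827, 1872, 1874 and 1934, and 22.4, 26.4, 29.4 and 23.6 CPM in CSF1 OE mice 1931, 1932, 1936 and 2019. Its lowest CSF1 OE mouse was far above the highest control mouse. The fold change was 2.76 (95% interval 2.11 to 3.62), or 1.47 on the log2 scale (SE 0.17, adjusted p = 0.0220 from edgeR). The gene lies on chromosome 10 from 62947026 to 62974185 (GENCODE M21 on GRCm38), and no exon base of it is shared with another annotated gene. *Dna2* was called in 12 of 16 alternatives, with a log2 fold change between 1.35 and 1.57. It was not called without control mouse 1872 (adjusted p = 0.116), control mouse 1874 (0.0733), CSF1 OE mouse 1931 (0.0680) or CSF1 OE mouse 1936 (0.0837), all from edgeR with Benjamini-Hochberg adjustment. *Fen1*, the nuclease that removes short flaps, and *Lig1*, the ligase that seals the fragments, were higher by 0.56 and 0.58 on the log2 scale (SE 0.16 and 0.23, adjusted p = 0.149 and 0.249 from edgeR). *Fen1* was higher in every CSF1 OE mouse than in every control mouse, while *Lig1* overlapped. The ratio of the CPM of *Dna2* to that of *Fen1* within a mouse ran from 0.372 to 0.426 in control and from 0.695 to 0.776 in CSF1 OE mice. The ratio to *Lig1* ran from 0.200 to 0.275 and from 0.399 to 0.513, and the ratio to *Pcna* from 0.0460 to 0.0681 and from 0.0959 to 0.117. None of these ratios overlapped between the genotypes. They were chosen after the values had been seen and are given with no test. With *Dna2* left out the median of the members was still 0.48.

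**Figure D2:**
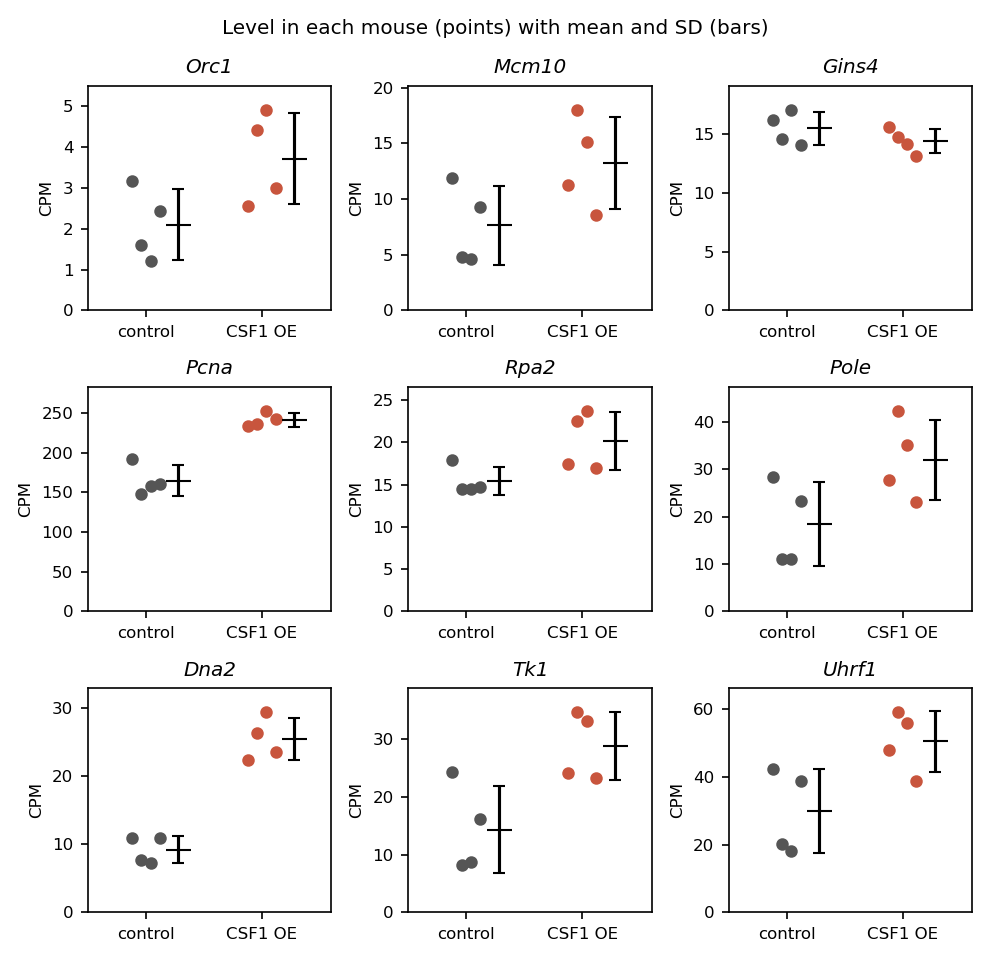
CPM of 9 replication genes in each of the 4 control (grey) and 4 CSF1 OE (orange) mice, as points from left to right by animal number, with the mean and SD as a bar beside them and each axis from 0. Only Dna2 and Pcna of the 9 show no overlap, and the genotypes of Gins4 lie at nearly the same level.

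The nucleotide supply genes, *Rrm1*, *Rrm2*, *Tyms* and *Tk1*, had the highest median of the 8 role groups (0.68), with 4 of 4 higher and at an unadjusted p under 0.05 and 0 called. *Tk1*, thymidine kinase, had 24.4, 8.16, 8.77 and 16.1 CPM in control mice 1827, 1872, 1874 and 1934, and 24.1, 34.7, 33.1 and 23.3 CPM in CSF1 OE mice 1931, 1932, 1936 and 2019. Control mouse 1827 overlapped the CSF1 OE mice, and the fold change was 2.002 (95% interval 1.18 to 3.41, log2 fold change 1.002, SE 0.34, adjusted p = 0.200 from edgeR). This was the largest fold change after that of *Dna2*, and its interval shows how far the spread between mice limited it. *Rrm1* and *Rrm2*, the large and the small subunit of ribonucleotide reductase, which makes deoxynucleotides, were at 0.54 and 0.83 (adjusted p = 0.179 and 0.247 from edgeR). *Tyms*, thymidylate synthase, had the smallest difference of the group and the least spread. It had 34.4, 32.9, 34.3 and 35.8 CPM in control mice 1827, 1872, 1874 and 1934, and 39.5, 43.9, 43.9 and 46.5 CPM in CSF1 OE mice 1931, 1932, 1936 and 2019. Its genotypes did not overlap, and mouse 2019 was the highest of the 8. Its log2 fold change was 0.34 (SE 0.080, adjusted p = 0.0899 from edgeR).

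Both genes that copy DNA methylation onto the new strand were higher and had an unadjusted p under 0.05, and neither was called. *Uhrf1*, which recognises DNA methylated on 1 strand, had 42.4, 20.3, 18.2 and 38.7 CPM in control mice 1827, 1872, 1874 and 1934, and 48.0, 59.1, 56.0 and 38.8 CPM in CSF1 OE mice 1931, 1932, 1936 and 2019. Control mouse 1827 lay above the lowest CSF1 OE mouse and 1934 just below it, while 1872 and 1874 were far lower, and the log2 fold change was 0.75 (SE 0.28, adjusted p = 0.237 from edgeR). *Dnmt1*, the maintenance methyltransferase, averaged 101 ± 14.4 CPM in control mice and 120 ± 8.32 CPM under CSF1 OE (SD, n = 4 each), and its log2 fold change was 0.26 (SE 0.11, adjusted p = 0.279 from edgeR).

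The mice of a genotype were unlike each other in a way that most members shared. Control mice 1872 and 1874 were both below control mice 1827 and 1934 in 40 of 43 members (93.02%), an order that 15.7% of all genes tested had, and both were below every CSF1 OE mouse in 41 of 43. Mouse 1827 or 1934 was above the lowest CSF1 OE mouse in 37 of 43. The highest of the 8 mice was CSF1 OE mouse 1932 in 26 members and 1936 in 14, and the lowest was control mouse 1874 in 28 and 1872 in 13. The members' summed level was 1611, 1093, 1039 and 1385 CPM in control mice 1827, 1872, 1874 and 1934, and 1686, 2018, 1936 and 1545 CPM in CSF1 OE mice 1931, 1932, 1936 and 2019. CSF1 OE mouse 2019 lay below control mouse 1827, so that the sums of the genotypes overlapped. The order of the mice was seen in the data and is a description, with no test. Only the order among the control mice has its share over all genes beside it. The counts above that set control against CSF1 OE mice, or name the highest or lowest mouse, have none. The calls depended on single mice. Without control mouse 1827, 4 members were called (*Dna2*, *Mcm3*, *Pcna* and *Rrm1*), where edgeR called 1.0% of all genes higher, and 20 members (46.5%) did not overlap, against 12.1% of all genes in the same 7 mice. Without CSF1 OE mouse 2019, 1 member was called, where 0.433% of all genes were called higher, and 18 (41.9%) did not overlap, against 9.7% of all genes. Without CSF1 OE mouse 1932, 38 were higher and 5 lower (*Cdc7*, *Gins3*, *Gins4*, *Orc6* and *Pole2*).

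**Figure D3:**
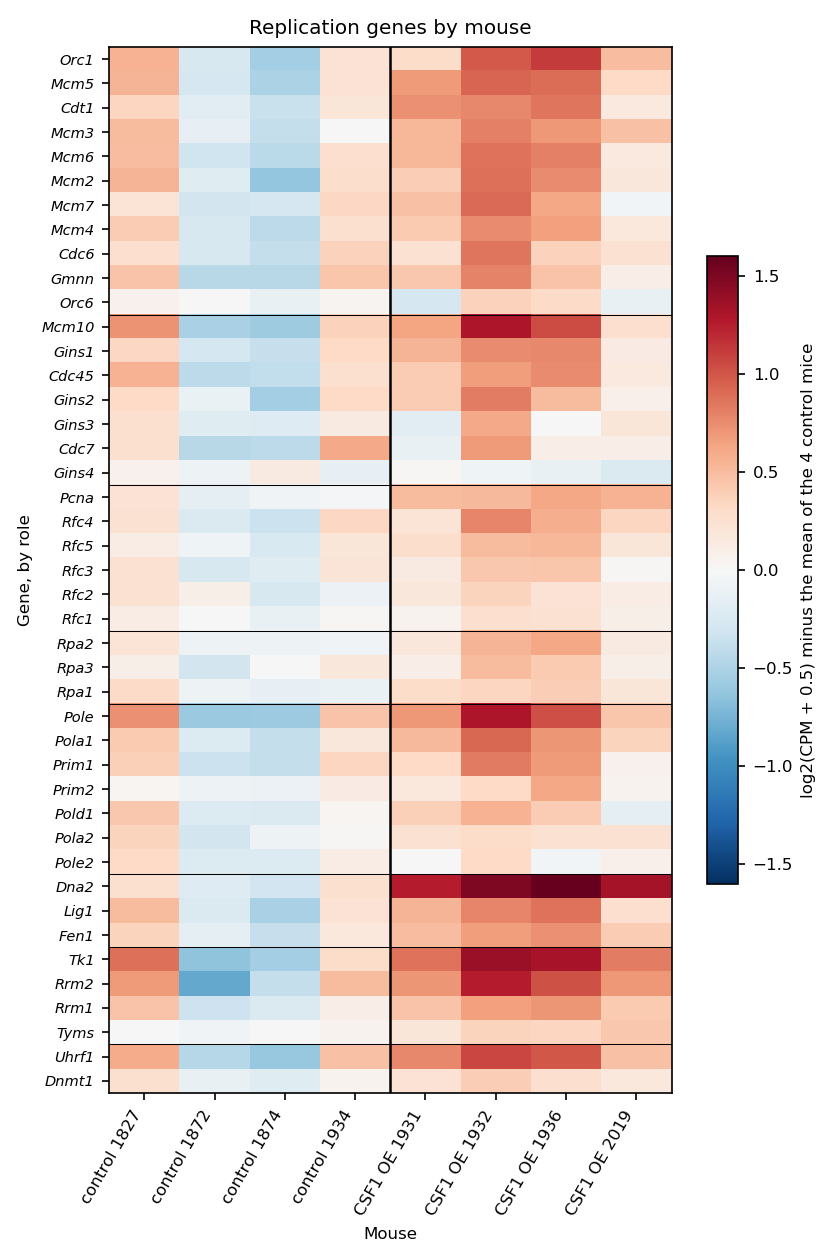
Level of the 43 replication genes (vertical, by role) in the 8 mice (horizontal, by genotype and animal number), as log2(CPM + 0.5) minus the mean of the 4 control mice. Control mice 1872 and 1874 are mostly blue and 1827 and 1934 mostly pale red in the same genes, CSF1 OE mice 1932 and 1936 are the deepest red, and Dna2 is red in all 4 CSF1 OE mice.

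The labels give no batch, but the animal numbers fall into those from 1931 to 1936, with 1 control and 3 CSF1 OE mice, and the other 4, with 3 control mice and CSF1 OE mouse 2019. Within the range from 1931 to 1936, the 3 CSF1 OE mice were all above the control mouse in 33 members (76.7%), against 35.2% of all genes, and the median difference was 0.36 on the log2 scale. Among the other 4 mice, mouse 2019 was above all 3 control mice in 8 members (18.6%), against 32.3% of all genes, with a median difference of 0.25. Both held in 7 members (16.3%), against 19.8% of all genes. *Dna2* differed by 1.21 in the first and 1.42 in the other set, and *Pcna* by 0.58 and 0.55. With a term for the range in edgeR, *Dna2* and *Pcna* were the members called, where 2.25% of all genes were called higher. The median of the members was 0.30, and 7 had an unadjusted p under 0.05. The share of all genes at that p in this fit was not taken. In the same fit 1273 of all genes were called in either direction, so the 7 members cannot be read as an excess. The median of the members was thus smaller with the term, while *Dna2* and *Pcna* differed in both sets of mice. DESeq2 called 4 members, *Dna2*, *Fen1*, *Mcm3* and *Pcna*, all higher, where 1.98% of the genes it tested were called higher.

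Levels per length of exon in control mice ranged from 0.695 CPM per kb for *Orc1* to 109 for *Pcna*. After *Pcna* came *Mcm3* at 26.6, *Mcm7* at 16.1, *Dnmt1* at 15.99, *Rrm1* at 15.7 and *Mcm5* at 15.1 CPM per kb. The last 4 had similar levels, and their order was not tested. The lowest after *Orc1* were *Cdc6* at 1.09, *Mcm10* at 1.54, *Gins3* at 1.56 and *Dna2* at 2.23 CPM per kb. *Dna2* had rank 39 of 43 by level in control mice, and reached 6.18 CPM per kb in CSF1 OE mice. The libraries were made with a kit that does not mark strand, and 8 members share exon bases with a gene on the opposite strand that was also measured, so that their reads cannot be told apart there. These are *Fen1*, *Gins2*, *Mcm7*, *Orc6*, *Rfc2*, *Rfc4*, *Rfc5* and *Tk1*. The longest stretches shared with measured genes were 2758 bases of *Gins2* with *Gse1* and 952 bases of *Rfc2* with *Lat2*, an adaptor of immune receptors with a log2 fold change of 1.46 (adjusted p = 0.0937 from edgeR). *Fen1* also shares 1908 bases with *Gm10143* on the opposite strand, which was not measured, and the origin of reads there was not tested. *Pcna* and *Tyms* have processed pseudogenes in the annotation that were not measured here, and how reads were divided between them and the genes was not tested.

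**Figure D4:**
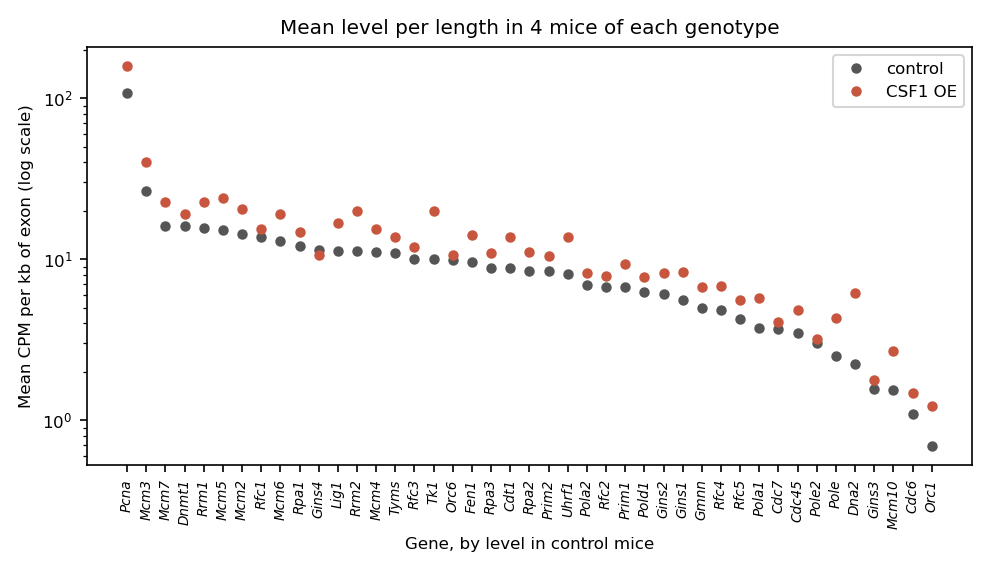
Mean CPM per kb of exon (vertical, log scale) of the 43 replication genes in 4 control (grey) and 4 CSF1 OE (orange) mice, ordered by the control level. Pcna is highest at 109 and 159; Dna2, at rank 39 of 43 in control mice, moves from 2.23 to 6.18.

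Genes of the same pathway that are not members were taken from lists of related proteins. Of 45 other replication genes, such as further Orc and polymerase subunits, fork protection factors and chromatin assembly factors, 37 were higher and 8 lower, and 0 were called. An unadjusted p under 0.05 from edgeR was reached by 15 (33.3%), all higher, against 10.1% of all genes tested that were higher at that p. The median of the 45 genes was 0.34. The largest difference was that of *Clspn*, the claspin gene, which signals stalled forks (0.85, SE 0.30, adjusted p = 0.207 from edgeR), and the lowest that of *Chtf8*, part of an alternative clamp loader (-0.24, SE 0.16, adjusted p = 0.497 from edgeR). Of 32 mitosis genes, 32 were higher and 0 were called, with a median of 0.63 (edgeR). An unadjusted p under 0.05 was reached by 24 (75%), all higher, against the same 10.1% of all genes (edgeR). DESeq2 called 7 of the mitosis genes and 3 of the other replication genes, where it called 1.98% of the genes it tested higher. While limma called 0 in either list, it called 104 over all genes. The mitosis genes ran from *Anln*, anillin of the cleavage furrow (0.08, adjusted p = 0.846 from edgeR), to *Ccnb2*, cyclin B2 (0.89, SE 0.28, adjusted p = 0.174 from edgeR). *Mki67*, the gene of the proliferation antigen Ki67 that the study stained in tissue, ran from 111 to 268 CPM in control mice and from 286 to 395 CPM under CSF1 OE, with no overlap and a log2 fold change of 0.74 (SE 0.27, adjusted p = 0.219 from edgeR). Among the mitosis genes control mouse 1872 was lowest of 8 in 31 of 32 and 1874 in 1, where 1874 was the lowest most often among the members, and CSF1 OE mouse 1932 was highest in 28 of 32. The shares of all genes with these mice lowest or highest were not taken. Of 13 E2F and pocket protein genes, 9 were higher and 4 lower, 0 were called by edgeR, DESeq2 or limma, and the median was 0.08. An unadjusted p under 0.05 was reached by 5 of the 13 (38.5%), all higher, against 10.1% of all genes (edgeR). *E2f8*, a repressor of the family that is itself made in S phase, was at 0.77 (SE 0.30, adjusted p = 0.247 from edgeR), and *Rbl2*, the pocket protein p130 of resting cells, at -0.11 (SE 0.15, adjusted p = 0.741 from edgeR). E2F letters were found in 23.9% of the promoters of the other replication genes and 10.3% of those of the mitosis genes, and a CCAAT box in 43.5% and 86.2%.

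**Figure D5:**
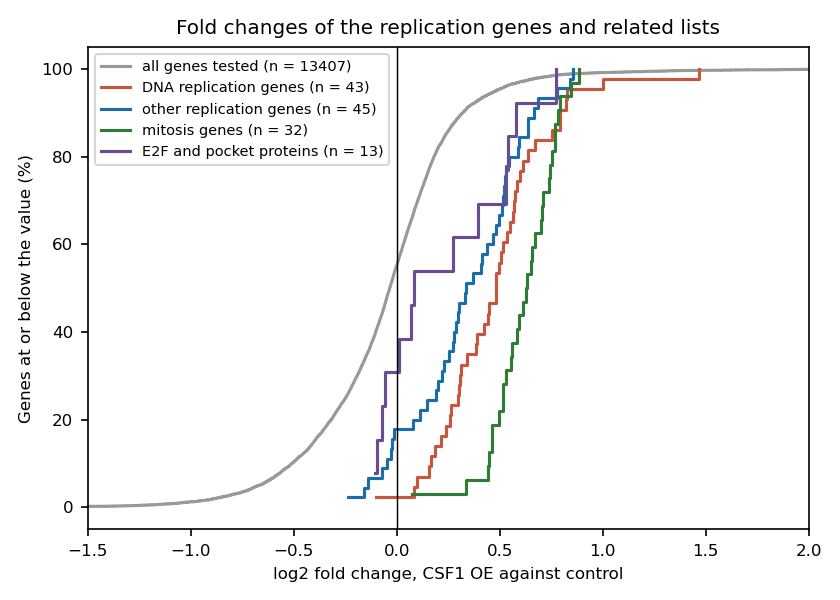
Share of genes (vertical, %) at or below a log2 fold change of CSF1 OE against control (horizontal) for all 13407 genes tested, the 43 replication genes, 45 other replication genes, 32 mitosis genes and 13 E2F and pocket protein genes. The medians are -0.03, 0.48, 0.34, 0.63 and 0.08, and the replication and mitosis curves lie to the right of that of all genes.

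Other dividing cells of a young brain could be among the CD11b+ cells, and markers of some of them are given beside the result. The 6 markers of oligodendrocyte precursor cells summed to between 118 and 258 CPM in control mice and between 68.7 and 268 CPM under CSF1 OE, with 1 of 6 higher and 0 called. The 6 border macrophage markers summed to 1535 to 2439 CPM and 1232 to 1843 CPM, with 0 of 6 higher and 0 called. The 6 endothelial markers summed to 514 to 823 CPM and 256 to 592 CPM, with 0 of 6 higher and 0 called. The 6 astrocyte markers summed to 362 to 669 CPM and 309 to 701 CPM, with 2 of 6 higher and 0 called. Among these *Gfap* had the largest log2 fold change (0.88, SE 0.35, adjusted p = 0.253 from edgeR), while the median of the list was -0.15. The 5 monocyte markers, of cells that can enter from blood, summed to 38.4 to 53.8 CPM and 40.8 to 78.2 CPM, with 1 of 5 higher and 0 called. The higher one was *Plac8*, from 4.38 to 12.5 CPM in control mice and from 13.8 to 37.7 CPM under CSF1 OE. Its log2 fold change was 1.70 (SE 0.41, adjusted p = 0.0948 from edgeR), while the rest of the list was lower. The 6 neutrophil markers summed to 49.3 to 131 CPM and 26.1 to 216 CPM, with 4 of 6 higher and 0 called. The T and NK cell markers were the list whose sums lay higher in every CSF1 OE mouse, at 0.269 to 0.832 CPM in control mice and 1.03 to 2.05 CPM under CSF1 OE. Of the 4 measured, 1 passed the filter, *Klrb1c*, a receptor of NK cells, with a log2 fold change of 1.53 (SE 0.42, adjusted p = 0.134 from edgeR), while the T cell genes *Cd3e* and *Cd3g* were at most 0.0756 and 0.136 CPM, below the limit that a count of 0 allows. Of the 14 marker lists none had a called gene, and no marker was at 0 in every library. With a covariate for endothelial, mural, astrocyte, oligodendrocyte precursor, oligodendrocyte and neuron markers, *Dna2* and *Pcna* were again the members called (edgeR), 42 of 43 were higher, and the median of the members was 0.55. The covariate is 1 score for each of the 8 mice, and the part of other cell types in the result was not tested.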

How the data were processed

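RNA of CD11b+ cells from 8 mice was sequenced with paired-end reads from TruSeq RNA v2 libraries. The submitters' processing notes name bcl2fastq 1.8.4, Bowtie 1.0.0, RSEM 1.2.7 and genome build mm10, and the annotation and strand setting are not given in the sources used here. The authors deposited expected counts per gene from RSEM, which divides reads that fit several genes, without normalization. The deposited table of normalized signal holds the same counts, each mouse divided by 1 size factor. No normalized column was left unmapped to a mouse. The study tested with EBSeq, which was not run here.

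Here the expected counts were rounded and fitted in R 4.3.3 with edgeR 4.0.16 (TMM, filterByExpr, glmQLFit with its default prior and glmQLFTest) over all genes, with genotype as the one term. edgeR and DESeq2 were also run on counts simulated from the means and dispersions of these data, and limma was not. The fold thresholds, 0.7 and its inverse rounded to 2 decimals, follow the study. The common biological coefficient of variation was 0.228. Log2 values by mouse used a pseudocount of 0.5 CPM. Exon lengths came from GENCODE M21. Limits from counts cover counting error only.

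The members and lists were chosen with earlier results of these data known. Values in every mouse were given for called members and, in each role group, the member with the largest rise and fall; in the other lists the called genes and the extremes were named, and *Mki67*. *Tyms* was given in full, and *Mcm3*, *Mcm5*, *Fen1* and *Dnmt1* were named with values, once their values had been seen.

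Results were recomputed with DESeq2 1.42.0, upper-quartile factors, other filters on low counts, a robust prior, limma 3.58.1 (trend method on the deposited normalized signal, log2 with 1 added), a term in the model for whether an animal number lies between 1931 and 1936, a covariate for other cell types, no fold threshold, and each mouse left out.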

Additional observations from a re-analysis of the deposited data

Results flagged for a closer look

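Of 86 groups of 4 mice (43 members in each genotype), 3 held a mouse far from the others by Dixon's criterion, which chance gives in about 1 in 20 groups. *Rpa1* in control mouse 1827 was at 75.9 CPM, with the other 3 control mice between 56.2 and 58.2 CPM. *Rpa2* in the same mouse was at 17.9 CPM, with the others between 14.4 and 14.7 CPM. *Pola2* in CSF1 OE mouse 1932 was at 24.0 CPM, with the others between 23.2 and 23.3 CPM, so that the whole range of that genotype was narrow.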

How the results depend on the processing

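The median of the members stayed above 0 in all alternatives, between 0.30 and 0.59 on the log2 scale. The number of members called was 2 and became 4 with DESeq2, 1 with upper-quartile factors, with no filter beyond any count and with a robust prior, and ran from 0 to 4 with a mouse left out. It was 0 without control mouse 1872 or 1874 or CSF1 OE mouse 1931 or 1936, where from 0.0147% to 0.0445% of all genes were called higher. In these fits 10, 10, 19 and 11 members had an unadjusted p under 0.05 (edgeR). The share of all genes at that p was not taken there, so these counts have no baseline. Of the other replication genes, 3 were called with DESeq2 and from 0 to 1 with a mouse left out. Of the mitosis genes, 7 were called with DESeq2 and 1 with the term for animal numbers or the covariate for other cell types. Of the E2F and pocket protein genes, from 0 to 1 were called with a mouse left out, the 1 in each case without control mouse 1827. Over all genes, 59 were called, 427 with DESeq2, 19 with upper-quartile factors, 104 with limma, 1273 with the term for animal numbers, 312 with the covariate, and from 3 to 164 with a mouse left out. Members without overlap numbered from 6 to 20 with a mouse left out (13.95% to 46.5%), against 7.63% to 12.1% of all genes. On the deposited normalized signal they numbered 5, where the share over all genes was not taken. With the term for animal numbers, *Chtf8* moved to 0.0037 and *Rbl2* to 0.076 on the log2 scale, both above 0; the cause was not tested. No paired analysis was run, because the labels give nothing, such as a litter, by which mice could be paired.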

Other observations

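Among the related genes that are not members, those without overlap between the genotypes were looked at after their values had been seen. Of the 45 other replication genes, 9 had every CSF1 OE mouse above every control mouse, and of the 32 mitosis genes 16 did, against 6.84% of all genes tested. The 9 included 3 enzymes of nucleotide and folate metabolism. *Dck*, deoxycytidine kinase of the salvage pathway, ran from 22.9 to 31.6 CPM in control mice and from 34.1 to 40.2 CPM under CSF1 OE, with a log2 fold change of 0.41 (SE 0.12, adjusted p = 0.161 from edgeR). *Dctd*, which deaminates dCMP on the way to dTMP, ran from 2.04 to 2.84 CPM and from 3.01 to 4.93 CPM (0.84, SE 0.23, adjusted p = 0.139 from edgeR). *Shmt1*, which supplies folate carbon units to thymidylate synthase, ran from 9.45 to 14.4 CPM and from 14.9 to 23.6 CPM (0.66, SE 0.18, adjusted p = 0.137 from edgeR). *Dbf4*, the partner that activates Cdc7, was at 0.50 (SE 0.15, adjusted p = 0.167 from edgeR), while *Cdc7* itself was at 0.16 (SE 0.28, adjusted p = 0.799 from edgeR). That difference between the partners was not tested.

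Of the mitosis genes, *Mad2l1*, a spindle checkpoint protein, had the lowest adjusted p. It ran from 9.13 to 13.5 CPM in control mice and from 17.4 to 19.3 CPM under CSF1 OE, with a log2 fold change of 0.67 (SE 0.15, adjusted p = 0.0753 from edgeR). *Cdk1*, the kinase that drives entry into mitosis, ran from 23.7 to 44.8 CPM and from 48.8 to 65.5 CPM (0.71, SE 0.18, adjusted p = 0.109 from edgeR). None of these genes was called.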
